A study of Homo sapiens with 5 samples.

Results

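Peaks of DNA carried by extracellular vesicles were compared between A549 cells kept for 3 days in EBSS and untreated A549 cells. A549 is an established human lung adenocarcinoma line, and EBSS is a balanced salt solution that holds glucose but no amino acids and no serum. All peaks of both vesicle lists were taken, and peaks with the same chromosome, start and end were merged. This left 15402 intervals from EBSS vesicles and 28993 from control vesicles, together 44395 of the 63391 intervals in the 4 peak lists of the series. The series also profiled FOXM1 and LC3 by chromatin immunoprecipitation in the same line, and its title names the transcription factor FOXM1 as setting which chromatin DNA reaches vesicles. No antibody was used for the vesicle DNA, and per the labels the medium for vesicle work was DMEM with glutamine and antibiotics but without fetal bovine serum. Control cells are labelled as having no treatment, so both groups went without serum and differ by the label in EBSS alone. Each group was 1 library. Intervals below therefore cover counting error only, no difference could be set against replicate spread, and no test of the conditions was possible. Whether the vesicle DNA was fixed, sonicated or treated with a nuclease, and which read layout it had, is not stated. Peak lists hold no expression, so the cell type could not be checked against marker genes.

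Extracellular vesicles are membrane particles that cells release, and some carry pieces of nuclear or mitochondrial DNA on or inside them. Amino acid and serum withdrawal shuts down mTORC1 signalling and starts autophagy, in which cytoplasm is enclosed in membranes and delivered to lysosomes, and some secretion routes share parts of that machinery. A peak in such a library is a place with more fragments than its surroundings. It marks uneven coverage, not an amount of DNA: coverage that is even, however strong, would give few peaks. A high peak density need not mean low coverage. The short arm of chromosome 5, densest in both lists, stood on a local background above the median over all peaks. Neither the number of vesicles nor the DNA per vesicle was measured, so differences in either cannot be told apart in these data.

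The promoter sequences of 3 genes, chosen after their values were seen, are shown because they stand for the 3 ways a place could appear, in EBSS vesicles alone, in control vesicles alone or in both. Each is the 300 bases around the start of the gene in RefSeq on GRCh38.p14, from 250 bases before it to 50 after it, written 5′ to 3′ on the strand of the gene, with CG dinucleotides in capitals. PGK1 lies at chrX:78103998-78104297 on the plus strand, CDH9 at chr5:27038537-27038836 on the minus strand and TAF11L9 at chr5:17594345-17594644 on the minus strand.
PGK1: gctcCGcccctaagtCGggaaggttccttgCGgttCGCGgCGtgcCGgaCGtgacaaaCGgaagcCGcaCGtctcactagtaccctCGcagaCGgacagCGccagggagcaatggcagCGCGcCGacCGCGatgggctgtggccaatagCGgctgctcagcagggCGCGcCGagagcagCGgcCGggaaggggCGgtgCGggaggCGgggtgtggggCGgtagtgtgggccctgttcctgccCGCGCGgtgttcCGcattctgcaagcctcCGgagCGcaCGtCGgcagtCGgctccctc
CDH9: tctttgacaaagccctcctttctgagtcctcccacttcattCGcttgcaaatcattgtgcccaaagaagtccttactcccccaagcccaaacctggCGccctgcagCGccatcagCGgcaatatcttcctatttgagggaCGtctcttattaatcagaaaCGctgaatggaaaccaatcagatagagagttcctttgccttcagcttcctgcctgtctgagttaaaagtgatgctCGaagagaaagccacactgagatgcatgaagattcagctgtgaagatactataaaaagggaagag
TAF11L9: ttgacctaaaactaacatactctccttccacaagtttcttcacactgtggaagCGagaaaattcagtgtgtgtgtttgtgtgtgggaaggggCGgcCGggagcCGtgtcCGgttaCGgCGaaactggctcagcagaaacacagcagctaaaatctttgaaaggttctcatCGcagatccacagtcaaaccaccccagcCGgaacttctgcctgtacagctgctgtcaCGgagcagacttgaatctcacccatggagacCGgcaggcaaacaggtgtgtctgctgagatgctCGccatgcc
The PGK1 window, from a gene of glycolysis, held 38 CG dinucleotides at 70.7% G and C, and an EBSS peak of fold 8.84 covered all 300 bases with no control peak within 179868 bp. The CDH9 window, from a cadherin gene on the short arm of chromosome 5, held 7 CG dinucleotides at 46.7% G and C, and a control peak of fold 3.83 covered all 300 bases. The TAF11L9 window, from an array of gene copies on the same arm, held 12 at 52.7%, and the peaks there, of which the EBSS one covered 253 bases, had a fold of 4.33 in EBSS vesicles and 4.18 in control vesicles. Folds are the authors' values for single peaks over the local background.

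The EBSS list was much shorter than the control list, and the shortfall lay in weak and middling peaks. The ratio of list lengths, EBSS over control, was 0.531 (95% interval 0.521 to 0.542). Estimated depth was nearly equal, with an EBSS value of 1.005 relative to control, and the lowest local background was 1.86 fragments in EBSS and 1.87 in control vesicles. Peaks with a −log10 p between 5 and 6 numbered 796 in EBSS and 2072 in control vesicles, a ratio of 0.384 (0.354 to 0.417). Peaks with a −log10 p above 10 numbered 389 in EBSS and 425 in control vesicles, and the interval of their ratio, 0.796 to 1.05, held 1. The strongest places were thus about as many in each list, while the long tail of shallow peaks differed in length. The median peak stood on 8 fragments in EBSS and on 9 in control vesicles. A q of at most 0.05 was reached by 1505 EBSS peaks (9.77%) and 3850 control peaks (13.3%). The lowest −log10 p with such a q was 5.20 in EBSS and 4.91 in control vesicles, so this cut was stricter for EBSS peaks. Above a common −log10 p of 5 lay 1695 EBSS and 3672 control peaks, a ratio of 0.462 (0.436 to 0.489).

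**Figure D1:**
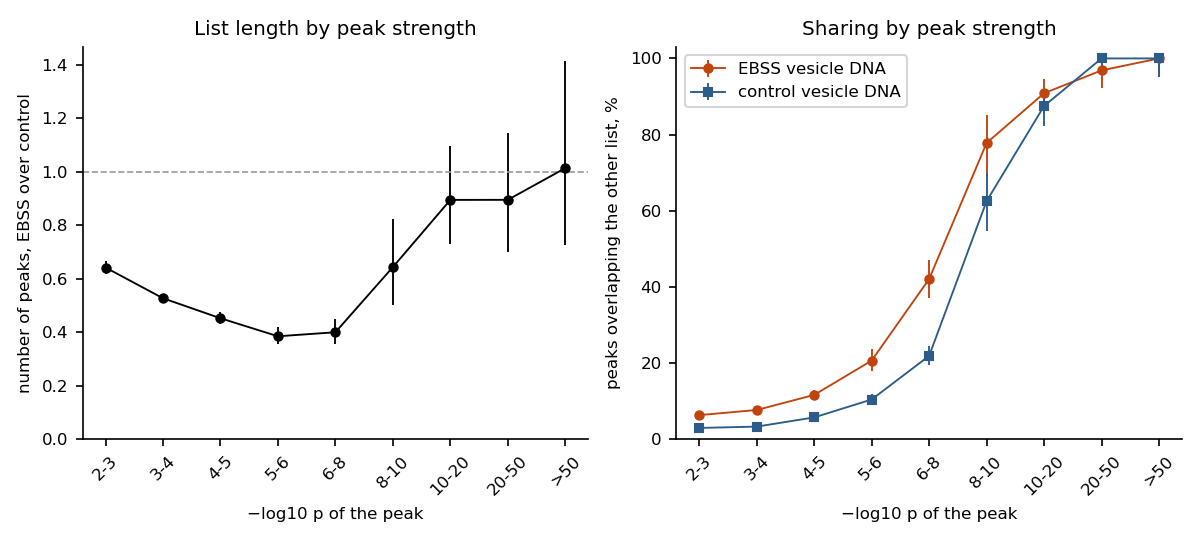
The left panel plots the number of EBSS peaks over the number of control peaks in 9 bins of −log10 p, and the right panel the percentage of each list that overlaps the other list by at least 1 bp; bars are 95% counting intervals. The length ratio lies lowest, at 0.384, for a −log10 p between 5 and 6 and reaches 1.01 above 50, and sharing climbs to 100% in both lists.

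Most weak peaks of one list had no partner in the other, and nearly all strong peaks had one. Of the EBSS peaks, 13532 met no control peak, which is 87.9% of the list, and of the control peaks, 27118 met no EBSS peak, or 93.5%. Among peaks with q of at most 0.05, 747 EBSS peaks (49.6%) and 2895 control peaks (75.2%) were unshared. Sharing was 6.28% of EBSS peaks and 2.91% of control peaks at a −log10 p between 2 and 3. It was 90.9% of EBSS peaks and 87.5% of control peaks between 10 and 20. At 1870 shared places the EBSS fold was close to the control fold, with a median log2 ratio, EBSS over control, of −0.06 and quartiles of −0.28 and 0.15. Where both peaks had a −log10 p of 10 or more, at 321 places, that median was 0.02. The strongest shared places whose nearest gene is protein-coding were close in fold. A distal intergenic place in the centromere zone of chromosome 5, assigned to EMB, led with 23.3 in EBSS and 21.2 in control vesicles. DUX4, a germline transcription factor in a repeat array on 4q, had 15.6 in EBSS and 14.9 in control vesicles, and a distal intergenic place assigned to DEFB115 had 14.6 and 16.8.

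Along the chromosomes the shortfall was uneven, and 5p, the short arm of chromosome 5, had the lowest EBSS share relative to control. Peaks numbered 779 on 5p in EBSS vesicles, or 17.7 per Mb, against 2353 in control vesicles, or 53.5 per Mb. Arms were split at centromere points rounded to 1 Mb, and 5 Mb either side of each point were kept apart as centromere zones. Of all peaks placed on the autosomes or X, 5p held 5.16% of the EBSS list and 8.22% of the control list, a share ratio of 0.628 (0.578 to 0.681). The density on 5p was the highest of all arms in both lists. The next lowest share ratios were those of 12p, with 11.1 EBSS and 28.1 control peaks per Mb and a ratio of 0.750 (0.658 to 0.852), and 8q, with 5.67 and 12.5 peaks per Mb and 0.859 (0.774 to 0.951). On 20p and 2p the ratios were 0.871 (0.723 to 1.05) and 0.895 (0.799 to 1.00), and both intervals reached 1.

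The other end of the order was held by 19p, where the lists were almost equally long. It held 65 EBSS and 68 control peaks, 3.10 and 3.24 per Mb, and its share ratio was 1.81 (1.27 to 2.58). It was followed by 4p with 104 EBSS and 130 control peaks (1.52, 1.16 to 1.98), by 22q (1.43, 1.16 to 1.77) and by 16p (1.39, 1.10 to 1.75). The small 21p, with 7 EBSS and 9 control peaks, had a ratio of 1.47 whose interval ran from 0.467 to 4.45. Of the 41 arms with 100 or more peaks in both lists together, the interval lay below 1 on 3, above 1 on 9 and held 1 on 29. No peak of either list lay on 13p, 14p, 15p or 22p outside the centromere zones. The order of arms by density was nearly the same in both lists (Pearson r 0.964, Spearman rho 0.931 over 41 arms). The share ratio was lower on arms with more control peaks per Mb (r −0.61, rho −0.72) and higher on arms with more protein-coding genes per Mb (r 0.63, rho 0.37). These are descriptions over arms of 2 libraries, and the control density is also the lower part of the ratio.

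**Figure D2:**
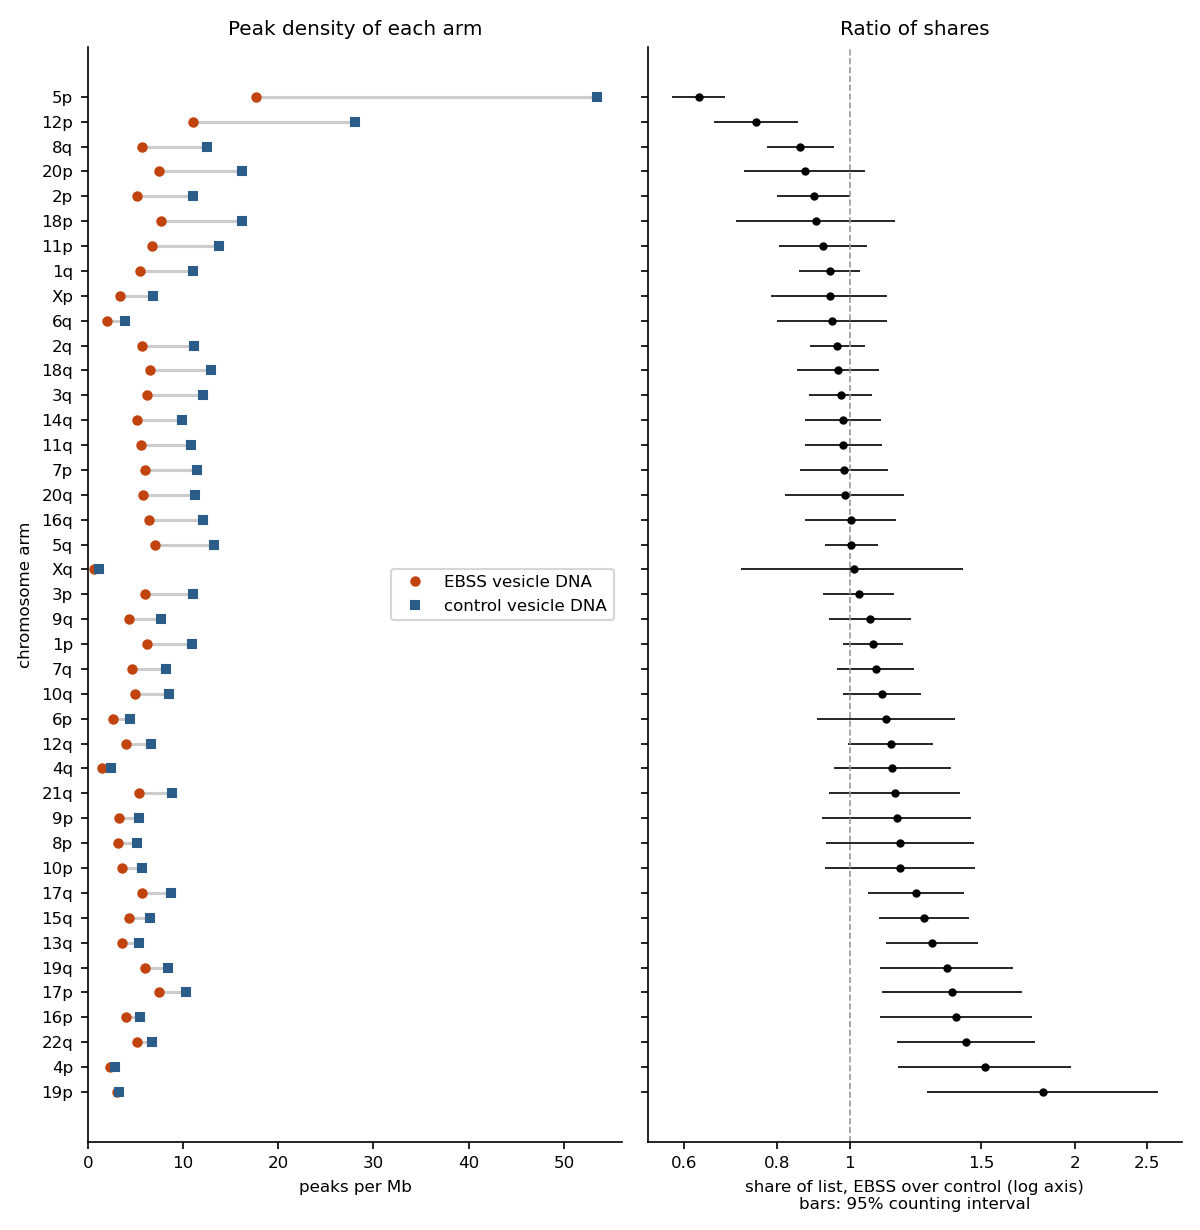
The left panel gives peaks per Mb on each of the 41 chromosome arms with 100 or more peaks, circles for EBSS and squares for control vesicles, and the right panel the ratio of list shares, EBSS over control, on a log axis with 95% counting intervals. The arms 5p and 12p stand apart at the top with 53.5 and 28.1 control peaks per Mb, and 19p, at the bottom, has the highest ratio, 1.81.

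The deficit on 5p ran through most of the arm but not its end, and was weaker over most of the long arm. In the 8 bins of 5 Mb on 5p, the EBSS density was 11 to 29.4 peaks per Mb and the control density 36.8 to 87.6, and the ratio of counts lay between 0.254 and 0.366 in every one of these bins. The outermost 4 Mb of 5p, beyond the bins, held 46 EBSS and 77 control peaks, a ratio of 0.597 (0.405 to 0.872), whose interval held the 0.531 of the whole lists. In the 25 bins of the long arm the ratio ran from 0.312 to 0.822, and over all of 5q the share ratio was 1.01 (0.926 to 1.09). In both lists the densest 5p bin lay between 20 and 25 Mb from the centromere point, so the peak of the profile lay at the same place. On 12p the ratio ran from 0.318 to 0.533 over 6 bins, while the share ratio of 12q was 1.14 (0.996 to 1.29). The median local background of 5p peaks was 4.09 fragments in EBSS and 3.47 in control vesicles, and their median pileup was 12 fragments in both. Peaks on 5p thus stood on a background above the median over all peaks, 2.15 fragments in EBSS and 2.04 in control vesicles. The part of this background in the count of peaks was not tested. On 5p, 35.6% of EBSS peaks (32.2 to 39.0%) met a control peak and 12.2% of control peaks met an EBSS peak. On the remaining arms those shares were 7.03% and 3.78%. At a q of at most 0.05, 5p held 59 EBSS and 501 control peaks.

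**Figure D3:**
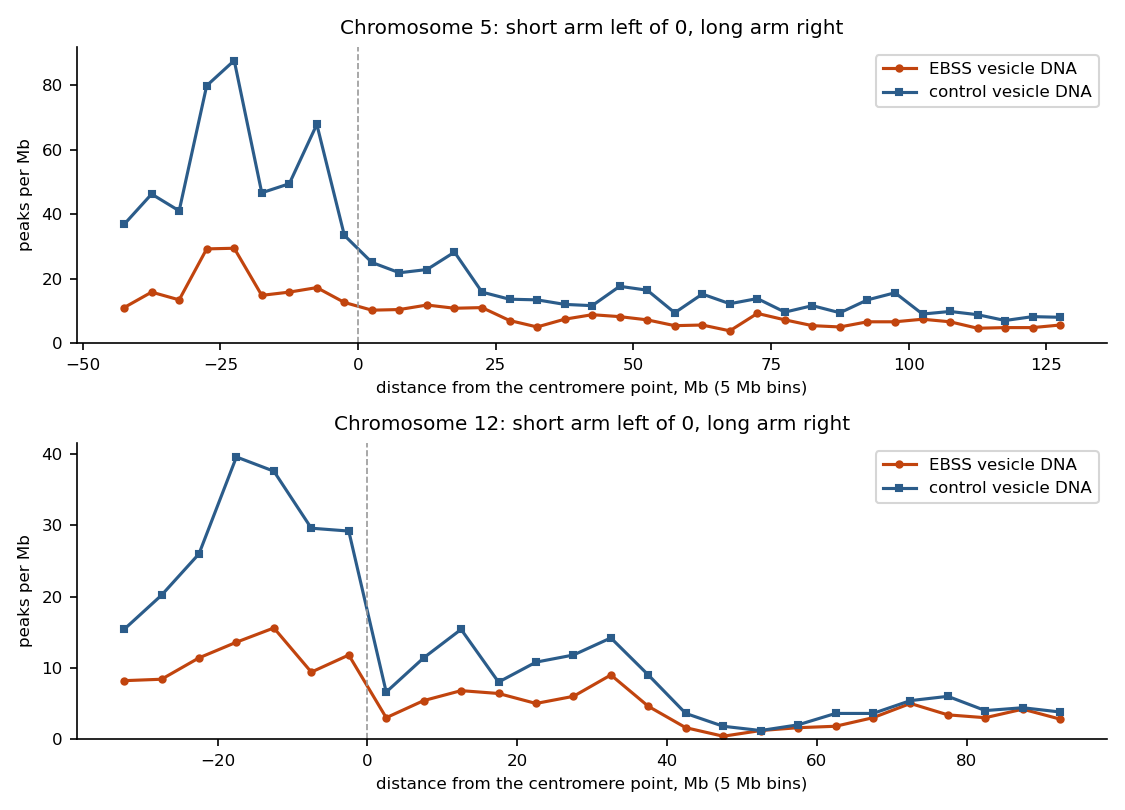
Peaks per Mb in 5 Mb bins are plotted against the distance from the centromere point of chromosomes 5 and 12, with the short arm left of 0, circles for EBSS and squares for control vesicles. Control density on the short arm of chromosome 5 reaches 87.6 peaks per Mb where EBSS density reaches 29.4. The lines lie closer on both long arms, with control above EBSS in most bins. Over 5q the densities are 13.3 control and 7.05 EBSS peaks per Mb.

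The genes with the most control peaks lay mainly on 5p, and they are given as a description, since they were chosen by these counts. Here and below, a gene holds the peaks that the authors' annotation assigns to it, and these need not lie within the gene. CDH18, CDH12 and CDH9, type II cadherins that mediate adhesion between cells, held 34, 14 and 12 EBSS peaks against 75, 55 and 49 control peaks. CTNND2, a catenin of neuronal junctions, held 18 EBSS and 59 control peaks, and GHR, the growth hormone receptor, held 4 and 33. C6, a component of the complement membrane attack complex, held 7 EBSS and 26 control peaks. On 12p, SOX5, a transcription factor, held 12 EBSS and 30 control peaks. The whole CDH family held 109 EBSS and 247 control peaks, of which 69 and 201 lay on 5p, and away from 5p it held 40 and 46, a ratio of 0.870 where all peaks away from 5p had 0.549. That ratio rests on small counts and is given without an interval. For the whole family the share ratio was 0.831 (0.657 to 1.045).

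A few genes went the other way on small numbers. TENM4, a teneurin of neuronal wiring, held 9 EBSS and 2 control peaks, and NCALD, a neuronal calcium sensor, 9 and 4. GLI3, a transcription factor of Hedgehog signalling, held 11 EBSS and 8 control peaks, and SNX24, a sorting nexin, 5 EBSS peaks and no control peak. DEFB115, a defensin gene of 1.97 kb beside the centromere of chromosome 20, was assigned 18 peaks in each list, 17 of them with q of at most 0.05 in each. PDE4D, a phosphodiesterase gene on 5q, was assigned 15 EBSS and 26 control peaks, and RERGL, a gene of 9.33 kb on 12p, 14 and 20. EMB, an adhesion glycoprotein gene beside the centromere of chromosome 5, was assigned 13 and 23. Its EBSS peak of highest fold lay 780795 bp from the TSS, so such counts describe the surroundings of a gene as well. None of the TENM4, NCALD, GLI3 or SNX24 peaks was shared between lists, which was the common state, since 87.9% of all EBSS and 93.5% of all control peaks were unshared. Any EBSS peak was assigned to 4081 of 20052 protein-coding genes (20.4%) and any control peak to 5585 (27.9%). The lists had 2333 such genes in common, 57.2% of the EBSS genes and 41.8% of the control genes.

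**Figure D4:**
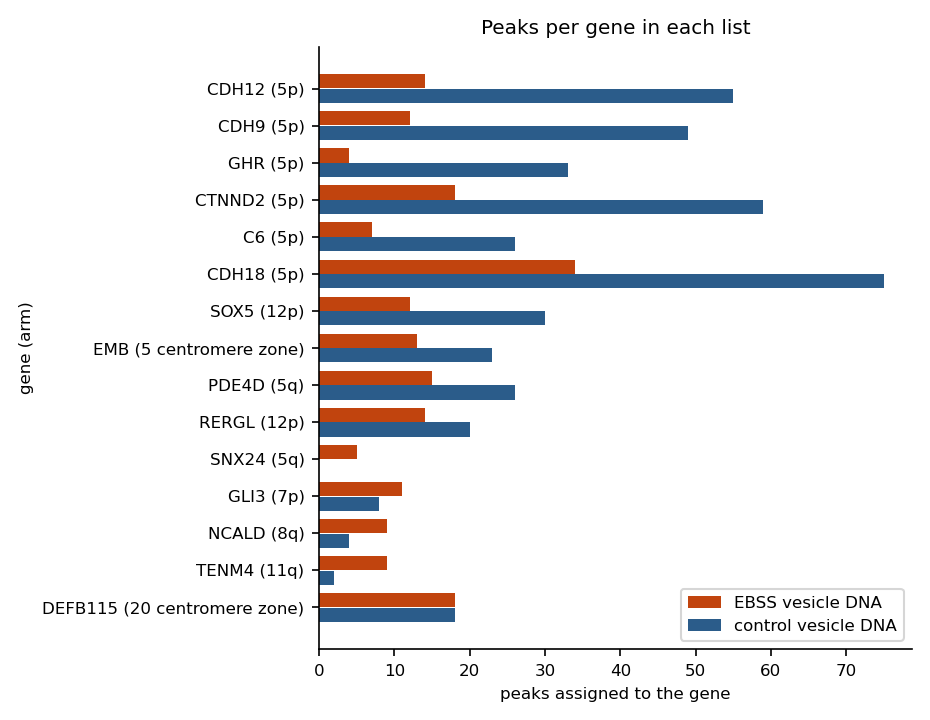
Bars give the number of peaks assigned to each gene described for its number of peaks, EBSS above control, ordered by the EBSS count minus the count expected from the list lengths. The 5p genes hold 4 to 34 EBSS peaks against 26 to 75 control peaks, and TENM4, NCALD, GLI3 and SNX24 hold more EBSS than control peaks.

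Centromere zones and chromosome ends held more of the EBSS list. The zones held 1365 EBSS peaks (9.03%) and 2261 control peaks (7.89%), a difference of 1.14 percentage points (0.587 to 1.69). With q of at most 0.05 they held 31.7% of EBSS peaks and 18.1% of control peaks, a difference of 13.6 points (10.8 to 16.4). With a −log10 p of 10 or more they held 52.3% of EBSS peaks and 51.7% of control peaks, and the interval of that difference, −7.46 to 8.77 points, held 0. The zones of chromosomes 20 and 4 had share ratios of 1.67 (1.31 to 2.12) and 1.64 (1.16 to 2.32), and those of 22 and 17 had 1.43 (1.12 to 1.83) and 1.40 (1.09 to 1.79), while the zone of chromosome 5 had 0.740 (0.591 to 0.922). In every other zone the interval held 1, such as those of chromosome 1 (1.01, 0.641 to 1.56) and chromosome 7 (0.887, 0.550 to 1.40). Within the ranked arms, the outermost 10% of the arm length held 10.2% of EBSS peaks (9.66 to 10.7%) and 8.13% of control peaks (7.80 to 8.47%), a ratio of 1.25 (1.17 to 1.34). Without 5p that ratio was 1.22 (1.13 to 1.30).

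Several of the strongest EBSS-only peaks lay at single places in the centromere zones. Among unshared peaks with a fold of 5 or more, 16 of 27 EBSS peaks and 1 of 35 control peaks lay in the zones of chromosomes 6, 11, 17 and 20, which were chosen after their values were seen. All centromere zones together held 17 of the 27 and 15 of the 35, and the interval of that difference, −4.40 to 44.6 points, held 0. The highest, at chr6:58450526-58450903, had a fold of 13.3 on 37 fragments, with the nearest control peak 473898 bp away. The next, at chr17:23190239-23190557, had a fold of 9.08 on 25 fragments. Of shared places, chr17:25074275-25074720 had a fold of 20.6 in EBSS and 5.22 in control vesicles, on 58 and 14 fragments, the largest log2 ratio of all shared places at 1.98. The pair was chosen after its values were seen. In centromere repeats a read can fit several places, so the position of such a peak is uncertain.

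Relative to genes the whole lists differed by less than 2 percentage points in each annotation class, while peaks with q of at most 0.05 differed more. No more than 1 kb from a transcription start site (TSS) lay 9.39% of EBSS peaks and 9.28% of control peaks, a difference of 0.107 points (−0.462 to 0.676). Between 1 and 2 kb lay 5.42% of EBSS peaks and 4.59% of control peaks, a difference of 0.827 points (0.396 to 1.26), and between 2 and 3 kb 4.29% and 3.89% (0.398, 0.00770 to 0.788). Introns other than the first held 27.1% of EBSS peaks and 28.8% of control peaks, a difference of −1.75 points (−2.62 to −0.870), and with q of at most 0.05 they held 16.1% and 24.1% (−8.02, −10.3 to −5.73). Exons outside promoters and UTRs held 2.21% and 1.93%, 3' UTRs 1.15% and 1.03%, and first introns 10.9% in both lists, or 6.25% of EBSS and 8.70% of control peaks with q of at most 0.05. Distal intergenic sequence held 38.6% of both lists, but 54.2% of EBSS peaks and 45.7% of control peaks with q of at most 0.05, a difference of 8.44 points (5.47 to 11.4). In the centromere zones, 78.9% of EBSS and 69.8% of control peaks with q of at most 0.05 were distal intergenic. Without the zones and without mitochondrial and unplaced sequence, 35.8% of EBSS and 37.3% of control peaks with q of at most 0.05 were distal intergenic, a difference of −1.57 points (−5.15 to 2.02), and over all peaks the difference was −1.21 points (−2.20 to −0.226).

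**Figure D5:**
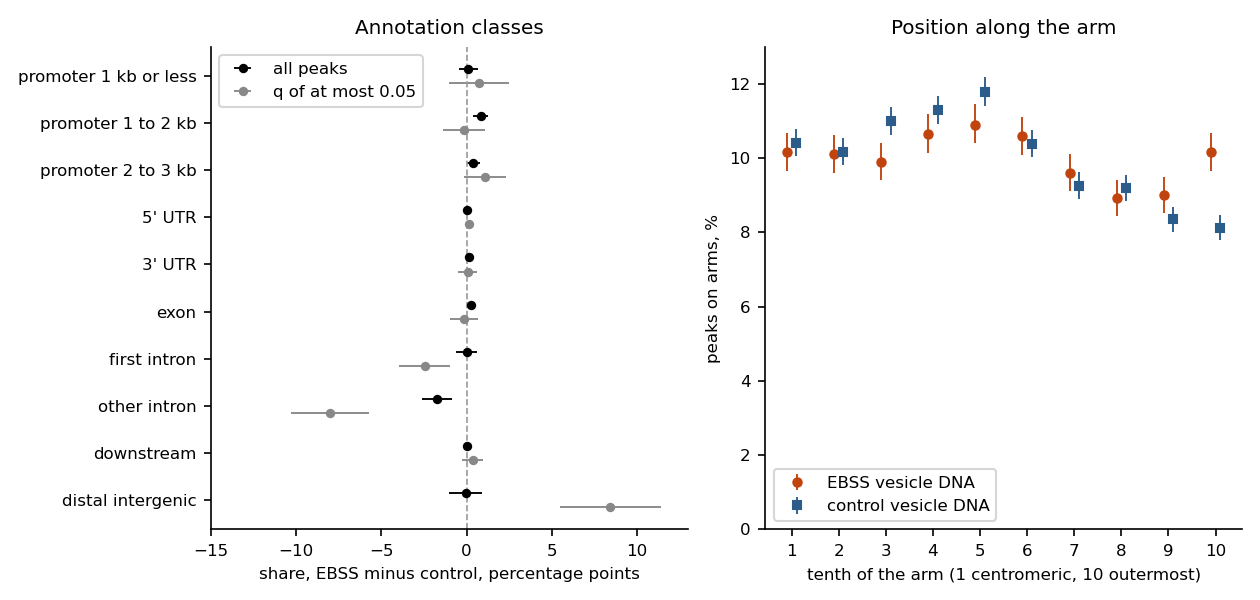
The left panel gives the difference in list share, EBSS minus control, for each annotation class in percentage points, in black for all peaks and in grey for peaks with q of at most 0.05; the right panel gives the percentage of arm peaks in each of 10 equal parts of an arm, circles for EBSS and squares for control vesicles, with 95% counting intervals. The promoter class within 1 kb sits at 0.107 points, distal intergenic peaks with q of at most 0.05 at 8.44 points, and the outermost 10% of the arm holds 10.2% of EBSS and 8.13% of control peaks.

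The median distance to a TSS was 14.4 kb in EBSS vesicles (13.98 to 14.95) and 16.2 kb in control vesicles (15.8 to 16.6). Without 5p, where genes are sparse, the medians were 13.95 kb in EBSS and 15.41 kb in control vesicles. Among peaks with q of at most 0.05 the order turned, with 17.2 kb in EBSS and 16.9 kb in control vesicles and a ratio of 1.02 (0.808 to 1.24). On 5p alone the medians were 29.1 kb in EBSS and 28.4 kb in control vesicles, with intervals that overlapped. Peaks over 200 kb from any TSS made up 2.63% of EBSS and 2.21% of control peaks, and 9.04% and 4.31% of those with q of at most 0.05. Of EBSS peaks 46.9% lay upstream and 50.9% downstream of the nearest TSS, and of control peaks 47.0% and 50.7%, with the rest on it. The median width was 302 bp in EBSS and 312 bp in control vesicles, and with q of at most 0.05 it was 355 bp and 348 bp. The narrowest width, 262 bp in EBSS and 265 bp in control vesicles, held 34.4% of EBSS and 31.1% of control peaks. Shared peaks were wider, with medians of 376 bp in EBSS and 405 bp in control vesicles.

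Promoter peaks, within 1 kb of a TSS, lay at 707 protein-coding genes in EBSS vesicles (3.53%) and at 1228 in control vesicles (6.12%). Both lists had one at 139 genes, 19.7% of the EBSS genes and 11.3% of the control genes. Peaks within 1 kb of a TSS made up 9.39% of all EBSS peaks and 10.75% of the shared ones. For control peaks these shares were 9.28% and 10.67%. RefSeq promoter windows of 300 bases overlapped by an EBSS peak numbered 165 of 34789, with a median of 57.0% G and C and 9 CG dinucleotides. Those overlapped by a control peak numbered 326, with a median of 58.7% and 15 CG dinucleotides, and over all windows the medians were 58.7% and 14. At least 60% G and C was found in 40% of windows with an EBSS peak (32.5 to 47.9%) and in 46.6% of those with a control peak (41.1 to 52.2%), and these intervals overlap.

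The strongest EBSS-only places at genes were PGK1 and FOXM1. The PGK1 peak, at chrX:78103702-78104426, stood on 34 fragments over a background of 2.96, with a −log10 q of 19.99, and covered the promoter printed above. FOXM1, which drives genes of G2 and mitosis, held an EBSS peak at chr12:2873898-2874550 with a fold of 6.77 on 51 fragments and a −log10 q of 23.02, and a weak one at chr12:2864328-2864776 with a fold of 2.11. The authors' annotation puts both FOXM1 peaks at a promoter. No control peak lay within 14993 bp of the strong one or within 5423 bp of the weak one. Also on 12p, a place that the authors' annotation assigns to ITFG2, at chr12:2858597-2859637, was shared. It had a fold of 6.02 in EBSS and 2.03 in control vesicles, on 70 and 13 fragments. Its log2 ratio of 1.57 was the highest of all shared places outside the centromere zones and 5p. The control peak there, at chr12:2858497-2858905, was the control peak nearest to both FOXM1 peaks. Whether that place lies within FOXM1 was not checked beyond the authors' annotation. Whether cloned DNA added reads at the PGK1 and FOXM1 places was not tested. MAP1LC3A, MAP1LC3B and MAP1LC3C, the LC3 genes of autophagy, held no peak in either list.

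The other EBSS-only peaks of high fold at genes were weaker, on 12 to 21 fragments. MUC12, a membrane mucin, had a fold of 5.52 on 21 fragments with a control peak 1006 bp away. PRR20B, in an array of near-identical genes on chromosome 13, had a fold of 5.24, and no control peak was assigned to the PRR20 family. ARHGEF5, a guanine nucleotide exchange factor, had 4.89, and MTBP, a partner of MDM2, 4.85. NXPH1, a neurexin ligand, had 4.68, and GDAP2, NPY4R2 and NUTM2A had 4.54 each on 12 fragments. Among control-only peaks, OR2A1, an olfactory receptor gene, had 5.22, DHX32, a helicase gene, 5.19, and RICTOR, a subunit of the mTORC2 kinase, 5.11. NAIP, an inflammasome receptor, had 5.02. GNG12, ELP4, CCDC91, TAF11L7 and PDE4D had 4.87 each on 13 fragments. The DHX32 peak lay 291 bp from an EBSS peak, so a place counted as unshared can sit beside one that the other list calls.

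Gene lists of starvation and vesicle biology are set against all coding genes, of which 20.4% held an EBSS peak and 27.9% a control peak. Of 23 genes of mTOR and amino acid sensing, 7 held 8 EBSS peaks and 10 held 26 control peaks. RICTOR, on 5p, took 1 of these EBSS peaks and 11 of the control peaks, and SLC38A9, a lysosomal arginine sensor on chromosome 5, took 1 and 5. RPTOR, a subunit of mTORC1, had an intronic place shared by both lists with q of at most 0.05, at a fold of 3.31 in EBSS and 3.12 in control vesicles. Of 17 genes of the amino acid starvation response, 1 held 1 EBSS peak and 5 held 9 control peaks. Of 35 autophagy genes, 8 held 15 EBSS peaks and 13 held 24 control peaks. UVRAG, an autophagy gene on chromosome 11, led that list with 4 EBSS and 6 control peaks. Vesicle biogenesis genes held 7 peaks in each list, over 4 genes in EBSS and 5 in control vesicles of 25. PSAT1, an enzyme of serine synthesis, held the 1 EBSS peak and 4 control peaks of the starvation response list. Of 16 genes of cytosolic DNA sensing, RNASEH2B, an RNase H2 subunit, held 1 EBSS peak, and IFI16, a DNA sensor, held 2 control peaks.

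Promoter peaks within these lists were at most 3 genes in EBSS and 5 in control vesicles. Over all coding genes 3.53% had one in EBSS and 6.12% in control vesicles, so counts of 0 to 3 in lists of this size are too small to set the lists apart. In EBSS vesicles they lay at FOXM1, at BUB1, a mitotic checkpoint kinase (fold 2.77), and at ECT2, an exchange factor of cytokinesis (2.45), of 30 G2/M genes, where control vesicles had none. Lysosome genes with an EBSS promoter peak were CTSD (2.97) and CTSA (2.09), lysosomal proteases, and ATP6V0D1 (2.35), a proton pump subunit, of 22, and control vesicles had none. NPRL3, RICTOR and TSC2 of the mTOR list had one in EBSS vesicles, and MAPKAP1, RICTOR, RRAGC and SLC38A9 in control vesicles. Of 18 long genes at common fragile sites, 14 held 55 EBSS peaks and 16 held 94 control peaks, a ratio near that of the list lengths. NRXN3 had the only EBSS promoter peaks of that list, while CNTNAP2, DLG2, LSAMP, NRXN3 and PARD3B had control promoter peaks. Apart from PGK1 and the strong FOXM1 peak, no EBSS promoter peak named here for these lists had a −log10 q above 0.592, under the 1.30 of a q of 0.05.

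Among the other lists, 6 of 16 nuclear envelope genes held 8 EBSS peaks and 3 held 7 control peaks, with LEMD2 the only promoter gene. Of 20 housekeeping genes, PGK1 was the only promoter gene in EBSS and TFRC (2.89) the only one in control vesicles. Of 20 lung epithelial genes, 3 held 3 EBSS peaks and 2 held 2 control peaks, and AGER (2.52) had an EBSS promoter peak. Lineage genes of blood and neurons, 21 in all, held 4 EBSS peaks over 2 genes (9.52%) and 19 control peaks over 9 genes (42.9%). Over all coding genes, 20.4% held an EBSS peak and 27.9% a control peak. Of the lineage peaks, 1 in EBSS and none in control vesicles had a q of at most 0.05, so these counts rest on weak peaks. RBFOX3, a neuronal splicing factor, held 2 EBSS and 4 control peaks there.

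Peaks at arrays of gene copies were mostly shared. Of 106 EBSS peaks at tandem arrays, 27 were unshared (25.5%, 17.5 to 34.9%), and of 132 control peaks 53 (40.2%, 31.7 to 49.04%), against 87.9% and 93.5% over the lists. As a share of its list, this group was larger in EBSS vesicles, with a ratio of 1.51 (1.16 to 1.97). But 72 of its EBSS and 87 of its control peaks had a q of at most 0.05. Of those, 4 and 13 met no peak of the whole other list, against 49.6% and 75.2% of all peaks with such a q. The count ratio of the group, EBSS over control, was 0.803, where peaks of any kind with a −log10 p above 10 had 0.915 (0.796 to 1.05). The GAGE genes, cancer-testis antigens on the X chromosome, held 6 EBSS and 7 control peaks, led by GAGE2A with a fold of 10.9 in EBSS and 11.8 in control vesicles. USP17L genes, deubiquitinases on 4p, held 4 peaks in each list, led by USP17L6P with 14.3 in EBSS and 13.9 in control vesicles. All EBSS peaks of GAGE, USP17L and TAF11L met a control peak. DUX4 copies held 34 EBSS and 45 control peaks, REXO1L copies 15 and 14, and DEFB genes 30 and 38. The RefSeq windows of 13 GAGE promoters held 6 distinct sequences, and those of 13 TAF11L promoters held 8, so where a read from such a copy belongs is uncertain.

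Larger families did not part from the list lengths beyond counting error. Olfactory receptor genes held 130 EBSS and 261 control peaks, zinc finger genes of the ZNF group 112 and 223, ribosomal protein genes and pseudogenes 249 and 515, and RNU6 copies 272 and 559. LINC genes held 793 and 1576 and microRNA genes 262 and 481. Of the 41 families searched, 24 had 20 or more peaks in both lists together, and in all 24 the interval of the share ratio held 1, with values from 0.717 for ANKRD20A and ANKRD30 to 2.30 for POTE. Among smaller families, GOLGA6 and GOLGA8 genes held 9 EBSS and 5 control peaks (ratio of shares 3.39, 1.02 to 12.9). HOX genes held 2 EBSS and no control peaks, and TSPY and CT47 held none in either list. Mucin genes held 12 EBSS and 22 control peaks, of which MUC6 (5.34 in EBSS, 4.70 in control vesicles) and MUC3A (4.04 and 5.51) were shared.

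Pileups at mitochondrial and ribosomal DNA differed in opposite directions, both noticed after the values were seen, but folds did not follow them throughout. The mitochondrial genome held 3 EBSS peaks with pileups of 369, 385 and 383 fragments, and 4 control peaks with 223, 203, 212 and 222. The local background of these peaks was 188 to 298 fragments in EBSS and 98.4 to 175 in control vesicles. Their folds, in the same order, were 1.89, 1.29 and 2.03 in EBSS and 2.25, 1.37, 1.21 and 1.99 in control vesicles. All EBSS pileups there were above all control pileups, with a median ratio at the 3 shared places of 1.73, where the median over all 1870 shared places was 0.938. A nuclear copy of mitochondrial sequence on 1p, MTATP6P1, had a pileup of 85 in EBSS and 39 in control vesicles. At the 45S ribosomal RNA genes, on chromosome 21 and unplaced scaffolds, each list held 14 peaks assigned to RNA5-8SN2. At 12 of the 14 shared places the EBSS pileup was lower, with a median ratio of 0.709. Counting every peak within 50 kb of these, whatever gene it was assigned to, the EBSS pileup was lower at 26 of 30 shared places and higher at 3, with a median ratio of 0.745. An exception, assigned to MIR6724-2, had 136 fragments in EBSS and 105 in control vesicles. Folds at the 45S places went both ways. At chr21:8405436-8405785 the fold was 8.03 in EBSS and 18.1 in control vesicles, and at chr21:8228504-8228905 it was 7.13 in EBSS and 5.03 in control vesicles. The EBSS peaks at chr21:8219633-8220305 and chr21:8220477-8220824, with folds of 17.9 and 4.77, meet 1 wider control peak with a fold of 16.2. In the separate 5S array on 1q, the only EBSS peak stood on 8 fragments, with a fold of 3.14, and the 2 control peaks on 20 and 19, with folds of 7.31 and 6.96. Peaks in both kinds of DNA come from many copies per cell, and copy number was not measured.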

How the data were processed

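Vesicle DNA of A549 cells was sequenced from 1 EBSS and 1 control library, and groups were taken from the titles. The submitters' processing notes name BWA, MACS3 3.0.0a6, ChIPseeker, FastQC 0.11.8 and fastp 0.20.0, and hg38 as the build. The authors deposited 15544 EBSS and 29248 control peaks, each with a linear ratio to the local background (its fold), a −log10 p-value, a −log10 q-value and a score, which was not used. Per the file headers, width, annotation class and distance to the TSS come with each peak. The headings of the −log10 columns are damaged in the EBSS list, and those columns were identified by position and by the recovery below. Both lists end at a p of 0.005, and their peak numbers skip 243 numbers in EBSS and 270 in control, so some called peaks are missing. Which control the caller was given is not stated.

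Intervals listed more than once were merged to their strongest summit. Whole pileups and the local background were recovered from the fold and the Poisson −log10 p, within 0.01, for all but 2 EBSS peaks and 1 control peak. This step and the marking of overlaps were checked on simulated data. Relative depth was estimated from the lowest background and the smallest width; read totals are unknown. Shares have exact Clopper-Pearson 95% intervals, differences normal ones, ratios exact conditional binomial ones and medians order-statistic ones, all for counting error only; neighbouring peaks are not independent. Peaks within 1 kb of a TSS count as promoter peaks, and a 1 bp overlap counts as shared. Genes were matched by symbol to RefSeq on GRCh38.p14, the assembly of hg38: 67.3% of EBSS and 66.8% of control names matched, and promoter sequences come from the same source. Python 3.11.15, numpy 2.4.6, pandas 2.3.3 and scipy 1.17.1 were used.

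The members, the 41 families, the 12 gene lists and the rule for named genes were chosen with earlier results of these data known. By that rule were named, per list, the 10 coding genes of highest fold at unshared peaks with q of at most 0.05, the 5 at shared peaks, the 10 with most peaks and the 5 of largest excess; list members with promoter peaks; up to 3 members per family; the 3 strongest unshared places; 5 genes by name; and the 5 arms at each end of the order. Some genes that the rule names are not reported here. Sequences were printed for PGK1, CDH9 and TAF11L9, chosen after their values were seen. The alternatives were a q of at most 0.05, equal list lengths, leaving out high-background peaks (10 fragments or more), chromosome 5, 5p with 12p, or the centromere zones, and other overlaps and promoter widths.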

Additional observations from a re-analysis of the deposited data

How the results depend on the processing

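Of 77 recomputed values, 40 stayed within the interval of the reported value. In 6 the direction turned. Of these, 4 are differences whose reported interval held 0: the promoter difference, weighted by arm (−0.20 points), and the distal intergenic difference without chromosome 5 (0.472), without 5p and 12p (0.0847) and with q of at most 0.05. With q of at most 0.05, the length ratio of the lists, EBSS over control, was 0.391. That cut lay at a higher −log10 p in EBSS than in control vesicles. Overlap then, with both lists cut at this q, was 42.1% of EBSS and 16.4% of control peaks. Against the whole other list, it was 50.4% and 24.8% of such peaks. The promoter difference was 0.720 points, the distal intergenic difference 8.44 points and the chromosome 5 difference −8.75 points. The 5p share ratio was 0.324, and 5.56% of EBSS and 21.8% of control peaks at tandem arrays were unshared with both lists cut. The others are medians with q of at most 0.05: the ratio of the median TSS distance turned to 1.02 and that of the median width to 1.02, both with intervals that held 1; the cause was not tested. At equal list lengths the length ratio is 1 by construction, overlap was 9.60% of EBSS and 9.57% of control peaks, the distal intergenic difference −1.81 points, the chromosome 5 difference −4.94 points, the 5p ratio 0.532 and the unshared share of control peaks at tandem arrays 28.7%. Without chromosome 5 the length ratio was 0.552 and overlap 10.9% of EBSS and 5.98% of control peaks; without 5p and 12p these were 0.554, 10.8% and 5.98%, with a chromosome 5 difference of −0.57 points. Without high-background peaks overlap was 11% of EBSS and 5.84% of control peaks, and 37.8% of EBSS and 49.5% of control peaks at tandem arrays were unshared. Without centromere zones and other sequences overlap was 8.64% and 4.53%, and the distal intergenic difference −1.21 points. With 50% of the shorter peak required, overlap was 10.0% and 5.29%; within 1 kb it was 17.4% and 9.60%. With promoters up to 3 kb the promoter difference was 1.33 points. The setting without 5p and 12p, those without centromere zones, arm-weighted shares, and some settings for arms and tandem arrays were chosen after seeing the data. No paired analysis was possible because each group had 1 library, and no replicate could be left out. Quartiles of the pileup were 7 and 10 fragments in both lists, so a weak peak missing from a list does not show that its DNA was absent.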
